A study of Mus musculus with 6 samples.

Results

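The immediate early genes described here were 10 genes chosen by name: Fos, Fosb, Jun, Junb, Jund, Egr1, Egr2, Ier2, Dusp1 and Zfp36. All 10 were present among the 16519 genes of the count table, and all 10 passed the filter on low counts that left 12605 genes for testing. The RNA came from bone marrow derived macrophages (BMDMs), macrophages grown in culture from mouse bone marrow cells. Mice of the KO group carried floxed Trmt61a alleles and LysM-Cre (Trmt61af/fLysmCre), and mice of the WT group carried the same floxed alleles without Cre (Trmt61af/f), with 3 libraries per genotype. LysM-Cre is a Cre recombinase inserted in the lysozyme gene Lyz2 that acts in myeloid cells, so the genotypes differed in Cre as well as in Trmt61a, and the contributions of Cre and of Trmt61a cannot be told apart. The Trmt61a protein is the catalytic part of the complex that places N1-methyladenosine on tRNA. The labels name no stimulus, no age or sex of the mice, and no link between a library and a separate mouse or culture, and p-values here reflect no more than library-to-library spread, possibly of technical origin.

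Immediate early genes are switched on within minutes of a signal without the need for new protein synthesis. Kinase cascades phosphorylate factors already bound at their promoters, such as the serum response factor with its partners and CREB, and the transcripts are short-lived. Fos and Fosb proteins pair with Jun, Junb or Jund to form AP-1, a transcription factor of macrophage growth and activation. Egr1 and Egr2 are zinc finger transcription factors, Ier2 is a nuclear protein, Dusp1 encodes a phosphatase that switches MAP kinases off, and Zfp36 encodes tristetraprolin, which binds AU-rich mRNAs such as that of Tnf and speeds their decay.

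The libraries held between 37021855 and 41033179 gene counts. Trmt61a lay between 0.530 and 0.755 CPM (counts-per-million, with library totals scaled by TMM) in KO and between 3.89 and 5.06 CPM in WT (log2 fold change -2.92, standard error 0.28, edgeR adjusted p = 0.00219). The 6 macrophage markers examined (Adgre1, Csf1r, Cd68, Itgam, Fcgr1 and Mertk) summed to between 9925 and 11219 CPM in KO and between 10122 and 10810 CPM in WT, so both genotypes carried the labelled cell type's markers.

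The upstream sequences of 5 of these genes are shown. Those of Fos, Egr2 and Dusp1 carry the CRE core described next. Those of Junb and Zfp36 belong to a pair with Pearson r = 0.94 over the 6 libraries. That pair was picked by its values from 45 pairs, none of which passed adjustment. RefSeq promoter windows (GRCm38.p6) were matched for 8 of the 10 genes, not for Egr1 and Ier2, and the windows below are the 250 bases before the start site, 5′ to 3′ on the gene's strand. Capitals mark the CRE core TGACGT on either strand (the motif bound by CREB and ATF factors), the CArG box (the motif of the serum response factor) and TATAAA. Fos lies on the plus strand at chr12:85473640-85473889, Egr2 on the plus strand at chr10:67537619-67537868, Dusp1 on the minus strand at chr17:26508473-26508722, Junb on the minus strand at chr8:84978749-84978998, and Zfp36 on the minus strand at chr7:28379229-28379478.
Fos: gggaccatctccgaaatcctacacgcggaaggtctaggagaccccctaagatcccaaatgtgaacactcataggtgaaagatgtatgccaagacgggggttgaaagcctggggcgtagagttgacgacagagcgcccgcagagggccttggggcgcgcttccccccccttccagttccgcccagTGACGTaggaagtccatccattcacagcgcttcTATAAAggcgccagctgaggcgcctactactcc
Egr2: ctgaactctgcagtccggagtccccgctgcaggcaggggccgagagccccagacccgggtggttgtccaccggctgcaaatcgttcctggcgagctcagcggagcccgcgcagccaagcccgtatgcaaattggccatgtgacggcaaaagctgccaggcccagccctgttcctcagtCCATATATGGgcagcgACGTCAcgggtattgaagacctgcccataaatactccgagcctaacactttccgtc
Dusp1: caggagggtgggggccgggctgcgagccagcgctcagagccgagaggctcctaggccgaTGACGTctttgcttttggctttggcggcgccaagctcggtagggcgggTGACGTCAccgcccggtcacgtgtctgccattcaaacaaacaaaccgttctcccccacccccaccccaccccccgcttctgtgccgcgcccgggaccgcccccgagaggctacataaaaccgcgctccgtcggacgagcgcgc
Junb: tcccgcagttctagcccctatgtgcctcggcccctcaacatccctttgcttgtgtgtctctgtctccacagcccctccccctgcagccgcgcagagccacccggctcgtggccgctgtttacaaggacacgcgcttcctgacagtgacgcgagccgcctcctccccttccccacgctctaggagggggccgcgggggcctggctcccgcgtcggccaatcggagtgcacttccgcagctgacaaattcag
Zfp36: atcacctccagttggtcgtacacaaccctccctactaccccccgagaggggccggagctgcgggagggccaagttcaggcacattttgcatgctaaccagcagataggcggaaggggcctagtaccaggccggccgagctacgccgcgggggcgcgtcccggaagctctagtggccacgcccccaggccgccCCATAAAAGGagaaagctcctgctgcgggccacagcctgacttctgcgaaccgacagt

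Of the 8 windows, 3 held the CRE core TGACGT, and these were the windows of Fos, Egr2 and Dusp1. The same letters occurred in 6.46% of all 32817 RefSeq windows of this length. In Fos the match covered bases 66 to 61 upstream of the start site, with TATAAA at bases 33 to 28. In Egr2 it covered bases 56 to 51, beside a CArG box at bases 72 to 63. In Dusp1 there was a match at bases 191 to 186 and the full palindrome TGACGTCA at bases 143 to 136, which holds an overlapping core match on each strand. TGACGTCA was present in 1.55% of all windows, TATAAA in 12.4% and the CArG box in 1.47%. A CArG box was also found in Zfp36, at bases 58 to 49, where it overlapped by its first base a match to the GC box GGGCGG. Egr2 has 5 windows in the RefSeq table, and the one used is that nearest to the start of its GENCODE transcript. The window of Zfp36 follows the RefSeq start site, which lies 1025 bases from the start of the GENCODE transcript of this gene.

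The AP-1 motif TGANTCA, searched on both strands like every motif here, was in none of the 8 windows and in 6.75% of all windows. The EGR motif GCGNGGGCG was in the windows of Fosb and Zfp36 and in 4.70% of all windows, and in Fosb it overlapped a GC box. The GC box GGGCGG was in 5 of the 8 windows (Fos, Fosb, Jun, Dusp1 and Zfp36) and in 32.7% of all windows. The windows of Junb and Jund held none of these motifs. Such matches describe the letters only. The motifs were chosen with the expression values known.

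**Figure D1:**
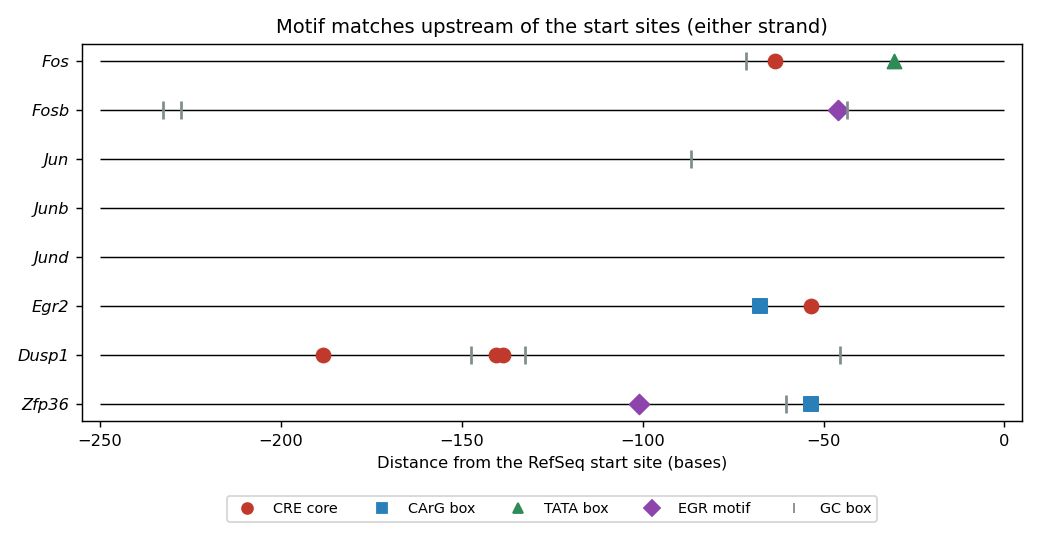
Motif matches in the 250 bases upstream of the RefSeq start site of 8 immediate early genes; the horizontal axis is the distance from the start site in bases and each row is a gene. The CRE core (red circles) appears in Fos, Egr2 and Dusp1, the CArG box (blue squares) in Egr2 and Zfp36, and no match in Junb or Jund.

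The transcripts were compact. In GENCODE M21, 4 of the 10 had a single exon (Jun, Junb, Jund and Ier2), where 1.86% of the 12283 tested genes with a coding transcript did. All 10 had at most 4 exons, against 20.3% of those genes. Their median spliced length was 2449 bases and their median GC content 55.2%, beside 3056 bases and 50.3% over the tested genes. They lay on 7 chromosomes, with Junb, Jund and Ier2 on chromosome 8 and Fosb and Zfp36 on chromosome 7. No source used here gives the strand setting of the counting, and 5 of the 10 overlapped another annotated gene. Jun, Jund and Zfp36 each overlapped an antisense RNA gene (Junos, Gm11175 and Gm44710), Junb overlapped Prdx2, and Dusp1 overlapped Ergic1 and smaller annotated genes. Reads from such stretches cannot be assigned to one strand here.

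The question put to these data was whether immediate early transcripts differ between KO and WT macrophages. None of the 10 passed the test (edgeR quasi-likelihood, Benjamini-Hochberg adjusted over all 12605 genes, threshold 0.05), where 0.0317% of tested genes did. DESeq2 called 0 of the 10 (background 0.114%) and limma voom 0 of the 10 (0.0317%). At an unadjusted p under 0.05 edgeR gave 1 of the 10, Zfp36, where 3.10% of tested genes did. DESeq2 also gave 1 (background 2.38%), as did limma voom (3.23%). This count rested on single libraries: the unadjusted edgeR p of Zfp36 was 0.112 without WT 1 and 0.0884 without KO 1, while that of Dusp1 was 0.0407 without KO 1 and that of Ier2 0.0287 without WT 3. The median log2 fold change of the 10 was -0.03, with 7 values below 0, beside a median of 8.37e-05 and 6297 values below 0 over the 12605 tested genes. The adjusted p was 0.99995 for each of the 10 in edgeR.

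The data limited the possible differences closely for some of the genes and loosely for others. For 8 of the 10 the 95% interval of the difference lay within 1.5-fold either way, as it did for 72.4% of tested genes. For 4 of the 10 (Jun, Junb, Jund and Zfp36) it lay within 1.25-fold, as for 51.0% of tested genes. Fosb and Egr2 were the genes whose intervals reached beyond 1.5-fold, and that of Fosb also reached beyond 2-fold (84.3% of tested genes lay within 2-fold).

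**Figure D2:**
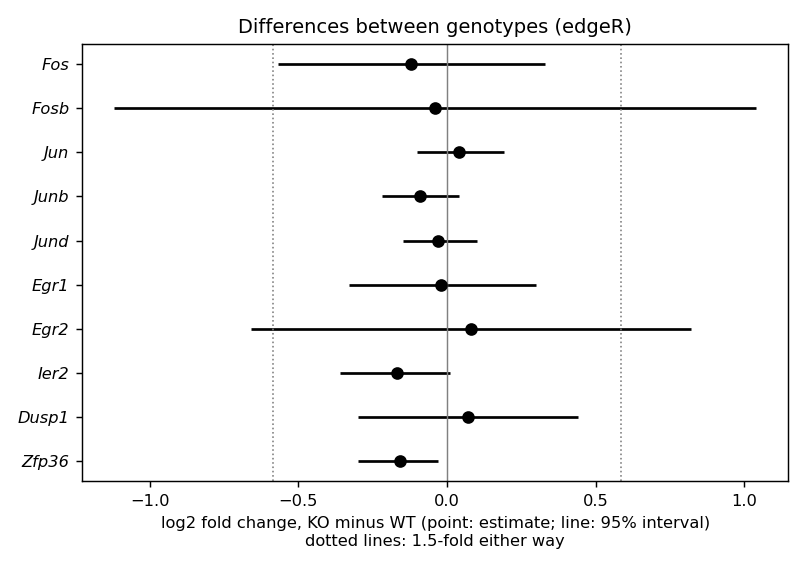
Log2 fold change of each immediate early gene, KO minus WT, with its 95% interval from edgeR (3 libraries per genotype); dotted lines mark 1.5-fold in either direction. The intervals of Jund, Junb and Zfp36 are the narrowest, those of Fosb and Egr2 cross the dotted lines, and that of Zfp36 lies below 0.

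Fos, the founding partner of AP-1, was at 62.4, 71.8 and 88.2 CPM in KO 1 to 3 and at 81.0, 64.3 and 96.5 CPM in WT 1 to 3. The genotypes overlapped: KO 1 and WT 2 were the lowest libraries and WT 3 and KO 3 the highest. The log2 fold change was -0.12 (standard error 0.19), with a 95% interval from -0.57 to 0.33 (edgeR adjusted p = 0.99995). Without WT 3 the value changed sign, to 0.03.

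Fosb, the close relative of Fos, was the least abundant of the 10. Its counts were 27, 34 and 40 in KO 1 to 3 and 26, 58 and 19 in WT 1 to 3, or 0.716, 0.856 and 0.979 CPM in KO and 0.705, 1.46 and 0.463 CPM in WT. WT 2 and WT 3 held the highest and the lowest value, with exact Poisson 95% intervals of 1.11 to 1.88 and 0.279 to 0.722 CPM, which do not meet; these intervals cover counting error only. The log2 fold change was -0.04 (standard error 0.49), with an interval from -1.12 to 1.04. Leaving out 1 library at a time moved it from -0.35 (without WT 3) to 0.54 (without WT 2).

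Jun, which can pair with itself as well as with Fos, was at 125, 117 and 126 CPM in KO and at 130, 115 and 113 CPM in WT. The WT values enclosed all of the KO values. Its log2 fold change was 0.04 with an interval from -0.10 to 0.19. Junb, a Jun paralog with weaker activating ability on many AP-1 sites, was at 81.9, 82.9 and 86.4 CPM in KO and at 92.8, 85.4 and 88.7 CPM in WT. Only KO 3 and WT 2 crossed, and the log2 fold change was -0.09 with an interval from -0.22 to 0.04. Jund, the Jun paralog kept on in resting cells, was at 123, 130 and 129 CPM in KO and at 132, 124 and 133 CPM in WT. It had the smallest range of the 10, the highest library standing 1.08 times above the lowest, and a log2 fold change of -0.03 with an interval from -0.15 to 0.10. Jun, Junb and Jund are paralogs, so counts are uncertain where reads could match more than one of them.

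**Figure D3:**
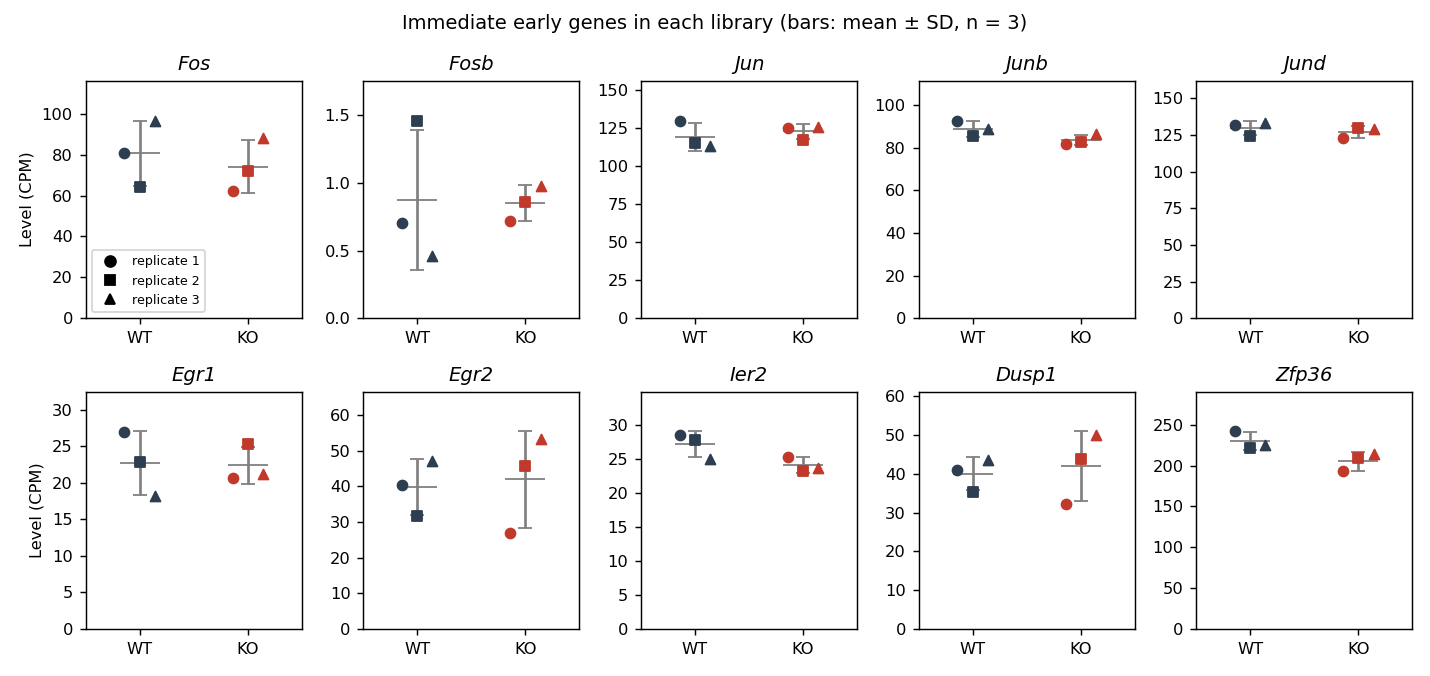
Level of each immediate early gene in CPM (vertical axes from 0) in WT and KO libraries; symbols mark replicate numbers and grey bars the mean and SD of 3 libraries. WT and KO points overlap in each panel except that of Zfp36, where the highest KO value is 214 CPM and the lowest WT value 222 CPM.

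Egr1, the zinc finger factor induced by growth factors, was at 20.7, 25.3 and 21.2 CPM in KO and at 26.9, 22.9 and 18.2 CPM in WT. WT 1 was highest and WT 3 lowest, and the log2 fold change was -0.02 with an interval from -0.33 to 0.30. Its sign changed under several alternatives. Egr2, a related factor that macrophages also raise during alternative activation, was at 26.9, 45.6 and 53.1 CPM in KO and at 40.4, 31.6 and 47.1 CPM in WT. The spread within KO alone covered the whole range of WT. Its log2 fold change was 0.08 (standard error 0.29), with an interval from -0.66 to 0.82, and it turned to -0.13 without KO 3. Ier2 was at 25.4, 23.2 and 23.7 CPM in KO and at 28.6, 27.9 and 25.0 CPM in WT. All KO values but that of KO 1 lay below all WT values, and the log2 fold change was -0.17, with an interval from -0.36 to 0.01 and an edgeR adjusted p of 0.99995.

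Among the feedback genes, Dusp1 was at 32.3, 43.7 and 49.9 CPM in KO and at 41.0, 35.3 and 43.6 CPM in WT. KO libraries were both the lowest and the highest. The log2 fold change was 0.07 with an interval from -0.30 to 0.44, moving between -0.07 and 0.23 when single libraries were left out. Zfp36 was at 193, 209 and 214 CPM in KO and at 242, 222 and 225 CPM in WT. It was the one member whose genotypes did not overlap, with every KO value below every WT value. Such separation in either direction was seen for 8.65% of tested genes, and with KO lower for 4.59%, so 1 of 10 is near the background. The log2 fold change of Zfp36 was -0.16 (standard error 0.06), with an interval from -0.30 to -0.03, or 89.4% of the WT level. It did not pass the adjusted test (edgeR adjusted p = 0.99995, unadjusted p = 0.0237), and the exact two-sided permutation test of this gene alone gave p = 0.1, the smallest that 3 against 3 libraries allow.

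Per kilobase of transcript, which allows genes to be compared, Zfp36 and Jund stood highest at a mean of 78.0 and 76.9 CPM per kilobase over the 6 libraries. With the lengths used these values were not separated: Zfp36 lay above Jund in 3 of 6 libraries. The length used for Zfp36 is that of the 2790-base GENCODE transcript, and a shorter transcript would give a higher value. The RefSeq coordinates of the gene (chr7:28376784-28379228) span fewer bases than that. The order of Zfp36 and Jund therefore depends on the length taken. Junb followed at 47.7, below Jund in all 6 libraries. Jun (38.0) and Fos (36.7) overlapped in range, as did Dusp1 (20.6), Ier2 (16.8) and Egr2 (13.8) from each to the next. Egr1 (7.42) and then Fosb (0.228) lay lowest, each below the gene before it in all 6 libraries. Jund made up 47.3% ± 1.12 of the summed Jun, Junb and Jund level per kilobase in KO and 47.3% ± 1.20 in WT (SD, n = 3).

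The ratio of the summed Fos and Fosb level to the summed Jun, Junb and Jund level, per kilobase, was 0.188, 0.213 and 0.256 in KO 1 to 3 and 0.226, 0.196 and 0.280 in WT 1 to 3. The means were 0.219 ± 0.0342 in KO and 0.234 ± 0.0424 in WT (SD, n = 3), a difference smaller than either SD. Egr2 exceeded Egr1 per kilobase in every library. Their ratio was 1.33, 1.85 and 2.57 in KO and 1.54, 1.41 and 2.65 in WT, with KO 3 and WT 3 the highest of their genotypes. The means of this ratio, 1.91 ± 0.623 in KO and 1.87 ± 0.680 in WT (SD, n = 3), again differed by less than the spread.

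The genes fell apart in how much they varied between libraries of one genotype. The biological coefficient of variation (BCV, the relative spread between libraries beyond counting error, as edgeR estimates it per gene) was 0.192 for Egr2, 0.135 for Fos, 0.128 for Dusp1 and 0.127 for Egr1. Set beside the 1000 genes nearest in mean CPM, these stood at percentiles 99.4, 97.9, 96.7 and 92.9. Jund (BCV 0.0588) and Junb (0.0611) stood at percentiles 18.2 and 21.2 of their own neighbours, and Ier2 at 32.1. Zfp36, Jun and Fosb lay between, at 50.7, 62.8 and 66.5. Highest and lowest libraries differed 3.15-fold for the scarce Fosb, 1.98-fold for Egr2, 1.55-fold for Fos, 1.55-fold for Dusp1 and 1.48-fold for Egr1, but 1.15-fold for Jun and 1.13-fold for Junb.

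**Figure D4:**
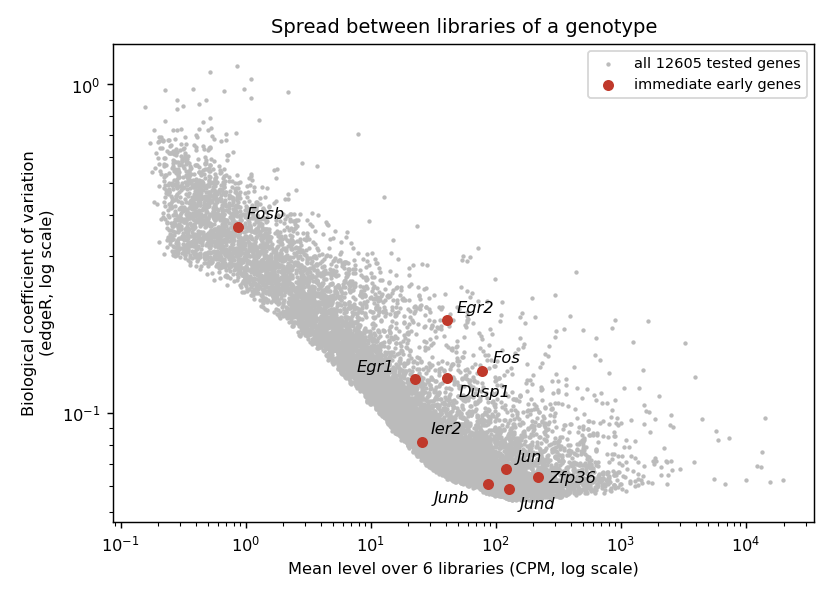
Biological coefficient of variation against mean level in CPM, both on log scales, for all 12605 tested genes (grey) and the 10 immediate early genes (red). Egr2, Fos, Dusp1 and Egr1 lie above most genes of their level, and Jund and Junb near the lower edge.

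Fos, Egr2 and Dusp1 also deviated in the same libraries. The average of their log2 CPM, centred on all 6 libraries, was -0.39 in KO 1 and -0.26 in WT 2, 0.04 in WT 1 and 0.07 in KO 2, and 0.23 in WT 3 and 0.31 in KO 3. Each genotype thus held low and high libraries. Over all tested genes, deviations from the genotype mean correlated at 0.263 between KO 1 and WT 2 and at 0.219 between KO 3 and WT 3. Between KO 1 and WT 3 the correlation was -0.292, and between KO 3 and WT 2 it was -0.204. This split of the libraries was thus not particular to Fos, Egr2 and Dusp1. Egr2 and Dusp1 had the closest relation of all 45 pairs, with Pearson r = 0.99 (exact permutation p = 0.00278) and Spearman rho = 0.94 (exact permutation p = 0.0167) over 6 libraries. With KO 1 and WT 2 left out, r was 0.96 over the remaining libraries. In each pair the libraries left out were those where the first-named gene lay farthest from its median, so they differed between pairs. Fos and Egr2 had r = 0.85 (exact permutation p = 0.0417) and rho = 0.89 (exact permutation p = 0.0333), and r = 0.83 without KO 1 and WT 3. Fos and Dusp1 had r = 0.81 (exact permutation p = 0.0583) and rho = 0.71 (exact permutation p = 0.136), and r = 0.86 without KO 1 and WT 3. Jund, whose deviations were small, had a high r with these genes over all 6 libraries. Its relation to Egr2 and Dusp1 was weaker by rho and changed sign without KO 1 and WT 2. Fos and Jund had r = 0.84 (exact permutation p = 0.0458) and rho = 0.83 (exact permutation p = 0.0583), and r = 0.64 without KO 1 and WT 3. Jund and Egr2 had r = 0.82 (exact permutation p = 0.0597) and rho = 0.60 (exact permutation p = 0.242), but r = -0.61 without KO 1 and WT 2, so that this relation rested on those libraries. Jund and Dusp1 had r = 0.76 (exact permutation p = 0.0944) and rho = 0.49 (exact permutation p = 0.356), and r = -0.78 without KO 1 and WT 2. Junb and Zfp36 had r = 0.94 (exact permutation p = 0.00833) and rho = 0.94 (exact permutation p = 0.0167), and r = 0.83 without KO 1 and WT 1. After Benjamini-Hochberg adjustment over the 45 pairs none passed, the smallest adjusted permutation p being 0.125 for r and 0.375 for rho.

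The r values of the pairs ran in both directions, and over 6 libraries they cannot settle whether the 10 genes share a movement. Of the 45 pairs 29 had a positive r and 6 an r above 0.8. No share over pairs of other genes is given here, so these counts are not set against a background. Fos and its relative Fosb had r = -0.57 (exact permutation p = 0.236) and rho = -0.43 (exact permutation p = 0.419), with r = -0.63 without KO 1 and WT 3. Egr1 and Egr2 had r = -0.03 (exact permutation p = 0.954) and rho = -0.14 (exact permutation p = 0.803), with r = 0.31 without WT 1 and WT 3. The mean deviation of all 10 genes was -0.17, 0.02 and 0.11 in KO 1 to 3 and 0.08, 0.01 and -0.04 in WT 1 to 3. The scarce Fosb weighed heavily in the WT 2 and WT 3 means. With 58 and 19 counts there, it deviated by 0.83 and -0.79, farther than any other member in those libraries. Its counting error also enters each of its pairs. The difference of the genotype means was -0.032 on the log2 scale, against an SD of 0.14 in KO and 0.06 in WT.

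**Figure D5:**
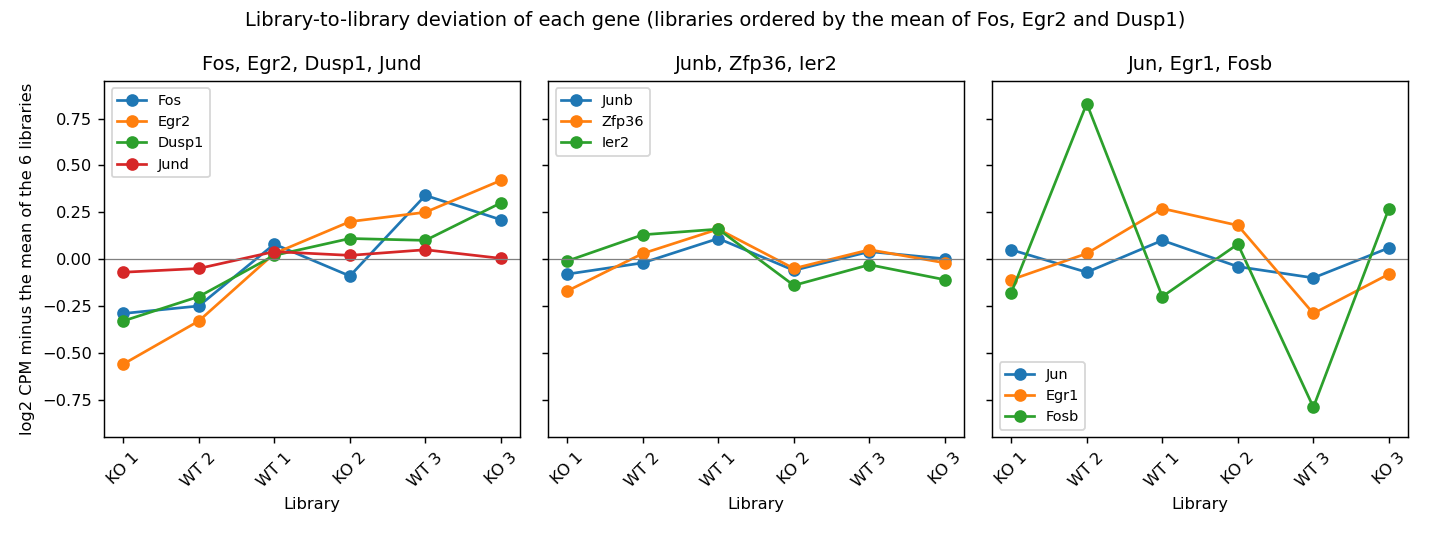
Deviation of each immediate early gene from its own mean over the 6 libraries, in log2 CPM, with libraries ordered by the mean of Fos, Egr2 and Dusp1 (lines join the points of a gene and carry no time order). Fos, Egr2 and Dusp1 are low in KO 1 and WT 2 and high in WT 3 and KO 3, Jund, Junb, Zfp36 and Ier2 deviate little, and Fosb swings between WT 2 and WT 3.

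Markers of neutrophils and of mast cells, basophils and eosinophils summed lowest in KO 1 and WT 2 and highest in WT 3 and KO 3. The mean of Fos, Egr2 and Dusp1 was lowest and highest in these libraries too, though it was highest in KO 3 and the marker sums in WT 3. Markers of other cells shared this split in part, reversed it in part or had other orders. The 6 macrophage markers summed highest in KO 1 (11219 CPM) and WT 2 (10810 CPM) and lowest in KO 3 (9925 CPM) and WT 1 (10122 CPM). The 7 neutrophil markers (S100a8, S100a9, Ly6g, Mpo, Elane, Camp and Ltf), all detected, summed to 983, 1524 and 1570 CPM in KO 1 to 3 and to 1194, 966 and 1747 CPM in WT 1 to 3. Their lowest libraries were WT 2 and KO 1 and their highest WT 3 and KO 3. The 6 matched of 7 mast cell, basophil and eosinophil markers summed to 24.0, 48.0 and 51.2 CPM in KO and to 30.5, 24.4 and 58.0 CPM in WT. The 6 stromal markers summed to between 126 and 294 CPM in KO and between 125 and 196 CPM in WT, lowest again in KO 1 and WT 2 but highest in KO 2. The 5 erythroid and megakaryocyte markers summed to between 147 and 157 CPM in KO and between 120 and 138 CPM in WT. The sums did not overlap, and the lowest was in WT 3. Of these 5 markers 3 averaged under 1 CPM, so the sum rests mostly on the others. Full separation of the genotypes was seen for 8.65% of single tested genes. T, B and NK cell markers summed lowest in KO 1 (1.27 CPM) and WT 2 (2.19 CPM) and highest in WT 3 (4.94 CPM). All 6 of them averaged under 1 CPM. The 3 matched dendritic cell markers summed to at most 3.04 CPM, in WT 1. The part of these cells in the levels of Fos, Egr2, Dusp1 or Zfp36 was not tested, and in bulk RNA a change in the number of cells and a change in RNA per cell cannot be told apart.

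Among other genes that averaged 5 CPM or more, the 952 with TGACGT in any of their windows had a median Pearson r with the mean of Fos, Egr2 and Dusp1 of -0.06 (quartiles -0.54 and 0.48). The 6921 genes without it had a median of -0.08 (quartiles -0.57 and 0.51). These values are a description across genes that share the same 6 libraries.

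The genes most like the mean of the 10 across the 6 libraries, out of 9666 eligible genes, were Ifrd1, a transcriptional co-regulator gene (r = 0.990), Yars, the tyrosyl-tRNA synthetase gene (0.987), Ubtf, a factor of ribosomal RNA transcription (0.980), Ap1ar, a regulator of the clathrin adaptor complex that shares the name AP-1 with the transcription factor but is unrelated to it (0.978), and Xrcc6, a DNA repair gene (0.977). With 6 points and so many genes, high values arise readily, and they are given as a description. The mean of the 10 includes the wide swings of the scarce Fosb in WT 2 and WT 3.

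Other genes of the pathway were taken from 9 lists, whose members outside the 10 are counted here. None of the 162 distinct listed genes passed in either direction in edgeR (background 0.0317%), DESeq2 or limma voom, and 7 had an unadjusted edgeR p under 0.05, beside 3.10% of all tested genes. DESeq2 gave 8 at that unadjusted level and limma voom 5. For 19 of the 162 the genotypes were fully separated in level, beside 8.65% of tested genes. The 45 tested immediate early genes outside the 10 centred on a log2 fold change of -0.01 (median), with 26 below 0. The most abundant were Mcl1, a survival factor of the Bcl2 family (694 ± 22.9 CPM in KO, 728 ± 9.29 in WT; log2 fold change -0.07), Zfp36l1, a tristetraprolin relative (-0.03), Klf6, a zinc finger factor (0.01), and Btg1, an anti-proliferative gene (-0.09). At an unadjusted p under 0.05 there were 2, Nr4a1, an orphan nuclear receptor (23.0 ± 1.08 CPM in KO, 27.0 ± 2.56 in WT; log2 fold change -0.23), and Rhob, a small GTPase (157 ± 10.5 and 141 ± 5.91; 0.16), both named after their values were seen (SD, n = 3).

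Upstream of the immediate early genes, the 30 MAP kinase and serum response factor pathway genes centred on a log2 fold change of -0.000661 (median). All 30 had 95% intervals within 1.5-fold, beside 72.4% of tested genes. Their median BCV was 0.0672, beside 0.0983 over all tested genes, and a low BCV narrows the interval. Mapkapk2, a kinase downstream of p38, had -0.04, Mapk14, which encodes p38 alpha, -0.02, Mapk3, which encodes ERK1, -0.05, and Ep300, a histone acetyltransferase gene, 0.04. Elk4, a serum response factor partner named after its values were seen, had 0.19 (edgeR adjusted p = 0.99995). It was the only one of the list at an unadjusted edgeR p under 0.05, beside 3.10% of tested genes. Of 17 receptors that can feed these cascades the most abundant were Csf1r, the receptor of the growth factor that sustains macrophages (4444 ± 609 CPM in KO and 4464 ± 420 in WT, SD, n = 3; log2 fold change -0.01), Csf2rb (-0.05), P2ry6 (-0.02) and Ifngr1 (0.03). In that list 2 had an unadjusted p under 0.05, the prostaglandin E2 receptor genes Ptger4 (-0.26) and Ptger2 (-0.29), named after their values were seen.

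Partners and feedback lists were centred near 0 as well. The 19 other AP-1 and bZIP genes centred on a log2 fold change of -0.000234 (median), with Maf at -0.03, Atf3 at 0.05 and Cebpb at -0.14. The 9 tested dual-specificity phosphatases besides Dusp1 had a median of -0.01, among them Dusp7 (-0.07), Dusp6 (-0.01), Dusp5 (-0.03) and Dusp16 (-0.08). The 12 tested EGR co-regulators and targets had a median of -0.00441, led in abundance by Tgfb1 (-0.06), Cd44 (0.05), Ptpn1 (-0.03) and Sp1 (0.04). The 11 heat shock genes, which rise with heat and other stress, had a median of -0.01, with Hspa8 at -0.01, Hsp90aa1 at 0.04, Hspd1 at 0.14 and Bag3 at -0.10.

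Around Zfp36, the 18 tested relatives and mRNA decay factors centred on a log2 fold change of -0.02 (median). All 18 had 95% intervals within 1.25-fold, beside 51.0% of tested genes, and their median BCV was 0.0695, beside 0.0983 over all tested genes. Ybx1 had -0.11, Zfp36l2 -0.09, Zfp36l1 -0.03 and Cnot1, the scaffold of the deadenylase complex, 0.04. The 15 tested mRNAs known as tristetraprolin targets had a median of -0.11, with 9 below 0. Plau, the urokinase gene, had 0.17, Plk2 0.03 and Ccl2, a monocyte chemokine gene, 0.28. Ccl3, another chemokine gene, averaged 46.1 ± 2.24 CPM over KO libraries and 52.4 ± 3.19 CPM over WT libraries (SD, n = 3). Its log2 fold change of -0.19 had an edgeR adjusted p of 0.99995. Ccl3 was 1 of 2 in this list of 15 with an unadjusted edgeR p under 0.05, beside 3.10% of tested genes, the other being Lif. Lif, a scarce cytokine gene named after its values were seen, averaged 2.29 ± 0.811 CPM over KO and 1.29 ± 0.365 CPM over WT libraries (SD, n = 3). The genotypes overlapped, and the log2 fold change was 0.83 (standard error 0.37, edgeR adjusted p = 0.99995). The listed targets lay on both sides of 0, from -0.54 to 0.83, and only 5 of the 15 had intervals within 1.5-fold, beside 72.4% of tested genes.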

How the data were processed

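Gene expression was measured by RNA sequencing of TRIzol-extracted RNA from BMDMs in 6 libraries, 3 per genotype. The authors deposited raw read counts per gene, made with fastp, HISAT2 and HTSeq on build mm10, per the submitters' processing notes; no source used here gives versions, annotation release or strand setting. Sample titles gave genotype and replicate number. The 10 genes and the gene lists were chosen with earlier results of these data known.

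Counts were filtered with filterByExpr (minimum count 10), scaled by TMM and tested with edgeR 4.0.16 in R 4.3.3 (robust quasi-likelihood fit, KO minus WT), with Benjamini-Hochberg adjustment over 12605 genes. Standard errors were derived from the log2 fold change and its F statistic, with 95% intervals from the moderated degrees of freedom. Log2 CPM used a prior count of 0.5. A count of 3 equals 0.0731 to 0.0813 CPM here. No 2 replicates agreed within sampling noise (chi-square per degree of freedom 11.4 to 34.2). Named genes were the 10 members, Trmt61a, up to 4 most abundant genes of each list and the 5 genes most correlated with the mean of the 10; others are marked as named after their values were seen. A gene that this rule would name is not reported here. Transcript lengths came from GENCODE M21, and promoter windows and coordinates from RefSeq GRCm38.p6, the assembly of mm10. The steps were tested on simulated data. Alternatives were other scalings, filters, DESeq2 1.42.0, limma 3.58.1 (voom), a replicate block and leaving out libraries.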

Additional observations from a re-analysis of the deposited data

How the results depend on the processing

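Under all 16 alternatives 0 of the 10 genes were called, the smallest adjusted p of any of them being 0.910, while the number of all genes called was 17 with DESeq2 and 8 with the replicate block, against 4; the cause was not tested. Junb, Jund, Ier2 and Zfp36 kept a negative log2 fold change in every alternative run. Of the 159 values of the 10 genes, 17 had the opposite sign to the reported one. With single libraries left out the log2 fold change ran from -0.26 to 0.03 for Fos, -0.35 to 0.54 for Fosb, -0.15 to 0.12 for Egr1, -0.13 to 0.31 for Egr2 and -0.07 to 0.23 for Dusp1. With limma voom Fosb was at 0.12 and Egr1 at 0.0042, and with the replicate block Fosb was at 0.08. Without KO 1 and WT 2 together, an alternative chosen after seeing the data, Fosb was at 0.65 and Egr1 at 0.05; without KO 3 and WT 3 together, chosen likewise, Jun was at -0.01 and Dusp1 at -0.0050. A minimum count of 50 left Fosb untested.

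Same-numbered libraries did not all deviate together (correlations across genes of 0.0314, -0.111 and 0.219 for replicates 1 to 3). KO 3 correlated best with its own number, but KO 1 did so with WT 2 (0.263) and KO 2 with WT 3 (0.13). The numbers were not taken as pairs, and the replicate block stays an alternative. The depth behind Fosb was 19 to 58 counts per library.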
